A study of Mus musculus with 6 samples.

Results

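The immunity-related GTPases (IRG) are a family of interferon-inducible GTPases of the mouse. The 8 members described here are Irgm1, Irgm2, Igtp, Iigp1, Tgtp1, Tgtp2, Gm4951 and F830016B08Rik. They were chosen as listed genes of the family, and they were selected on measured values as well, since the large difference of F830016B08Rik between H89 and NaCl tumors was part of the choice. The differences of the members between these groups are therefore given as a description. Counts of called members are printed beside those of all tested genes, and nothing is read from them. The 8 are among the 23557 genes of the deposited table, and all 8 are among the 13119 genes tested.

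CT26 is a colorectal carcinoma line of the mouse, and H89 is a kinase inhibitor known mainly for its action on protein kinase A. Female BALB/c mice aged 7 weeks received 500000 CT26 cells subcutaneously, and all tumors were taken on day 14. The H89 group (3 tumors) was given H89 at 10 mg/kg in NaCl by intraperitoneal injection 2 times a week, with the first injection on day 6, and the NaCl group (3 tumors) was given the NaCl vehicle alone. Total RNA of each whole tumor was sequenced, so tumor cells and host cells were measured together. The labels number the tumors 1 to 3 in each group and name no pairs, no pooling and no sequencing batch. The estimated counts summed to 29067921, 27067349 and 27883614 in NaCl tumors 1 to 3 and to 28548727, 31958793 and 30936962 in H89 tumors 1 to 3. Levels below are counts per 1000000 (CPM), scaled between tumors by TMM factors of 0.956 to 1.063, and 1 count was worth 0.0313 to 0.0369 CPM before that scaling. Differences are log2 fold changes of H89 minus NaCl from edgeR, each with its standard error (SE), and a positive value means a higher level in H89 tumors.

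In mouse cells, interferon gamma and, more weakly, type I interferons switch IRG genes on. The effector GTPases gather on the vacuoles that hold certain parasites and bacteria and break the vacuole membrane, while a smaller set of regulator GTPases stays on the cell's own membranes and keeps the effectors inactive there. Both tumor cells and the immune cells around them can carry this response, and it is widely used as a trace of interferon in tissue.

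The tissue was checked against epithelial tumor markers, of which 4 of 10 were abundant enough to be tested. Their most abundant gene was Krt18, with 13.2, 13.3 and 23.5 CPM in NaCl tumors 1 to 3 and 8.31, 7.75 and 8.27 CPM in H89 tumors 1 to 3. Another 5 of the 10 stayed under 1 CPM in all 6 tumors, so most of the epithelial markers gave little signal in these tumors. Epcam, named after its values were seen, reached 1.18 CPM in H89 tumor 1 and stayed under 0.1 CPM in the others.

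The regulators Irgm1, Irgm2 and Igtp and the effectors Tgtp1 and Tgtp2 lie on mouse chromosome 11. GENCODE M21 on GRCm38 places Irgm1 at chr11:48861968-48871683 on the minus strand, Tgtp1 at chr11:48985327-48994172 and Tgtp2 at chr11:49057194-49064206, both on the minus strand. Igtp is at chr11:58199556-58207591 and Irgm2 at chr11:58199618-58222782, both on the plus strand. These 5 of the 8 members matched a RefSeq promoter entry (build GRCm38.p6, 250 bases before to 50 bases after the start). The promoters of Iigp1, Gm4951 and F830016B08Rik were not examined, so nothing is said of their motifs. The stretches around the matches to a pair of motifs of interferon-activated factors are shown for the 5 members examined. The GAAA repeat, which is GAAA, any 2 bases and GAAA again, is a core of the interferon-stimulated response element, and TTCNNNGAA is the core of the gamma-activated sequence. Both strands were searched. TTCNNNGAA is its own reverse complement, and a TTCNNNGAA match can overlap a match to the GAAA repeat where they share the letters GAA or their complement. Each sequence runs 5′ to 3′ on the strand of its gene, and the capitals mark every match to either motif.
Irgm1: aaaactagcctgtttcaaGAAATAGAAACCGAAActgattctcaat
Irgm2: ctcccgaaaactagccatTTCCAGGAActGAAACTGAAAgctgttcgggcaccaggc
Igtp: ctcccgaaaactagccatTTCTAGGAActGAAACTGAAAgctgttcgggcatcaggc
Tgtp1: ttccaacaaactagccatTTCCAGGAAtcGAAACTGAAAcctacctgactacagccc
Tgtp2: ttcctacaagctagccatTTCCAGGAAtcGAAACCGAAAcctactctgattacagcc
The sequences are from chr11:48871423-48871468 (minus strand), chr11:58214884-58214940 (plus), chr11:58199493-58199549 (plus), chr11:48992296-48992352 (minus) and chr11:49064255-49064311 (minus). Irgm1 held 2 overlapping matches to the GAAA repeat and no match to TTCNNNGAA. The other 4 each held 1 match to TTCNNNGAA followed, after 2 bases, by 1 match to the GAAA repeat. Counted from the RefSeq start, the match to the GAAA repeat began at -30 in Irgm1, -34 in Igtp, -64 in Irgm2, -70 in Tgtp2 and -77 in Tgtp1. The annotations differ in the start, and the stretches of Irgm1, Irgm2 and Tgtp1 lie inside the GENCODE spans given above. Over all 32851 RefSeq promoters of this length, 3.44% held the GAAA repeat, 8.3% held TTCNNNGAA and 0.45% held both. The promoters of Igtp and Irgm2 were 92.1% identical over 265 aligned bases, with 61 identical bases in a row, and those of Tgtp1 and Tgtp2 were 80.5% identical over 272 bases. A match is a description of letters, not a binding site or a cause of any level reported here.

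Irgm1 encodes a regulator found on several host membranes, among them Golgi and lysosomes. Its level was 96.7, 88.8 and 36.8 CPM in NaCl tumors 1 to 3 and 195, 96.03 and 195 CPM in H89 tumors 1 to 3. H89 tumors 1 and 3 were about equal and above the rest, NaCl tumor 3 was lowest, and the groups overlapped because H89 tumor 2 lay just under NaCl tumor 1. The means (± SD, n = 3 here and below) were 74.1 ± 32.5 CPM in NaCl and 162 ± 57.1 CPM in H89 tumors, a log2 fold change of 1.13 (SE 0.39). In bulk tumors, fewer cells of a type and less RNA per cell cannot be told apart, for this gene and for all that follow.

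Irgm2, a regulator of the Golgi membrane, measured 64.6, 51.9 and 18.2 CPM in NaCl tumors 1 to 3 and 122, 55.9 and 126 CPM in H89 tumors 1 to 3. The order of the tumors was the same as for Irgm1, again with H89 tumor 2 between NaCl tumors 1 and 2. Its means were 44.9 ± 23.95 CPM in NaCl and 101 ± 39.4 CPM in H89 tumors, and its log2 fold change was 1.18 (SE 0.46). Igtp, the regulator of the endoplasmic reticulum, measured 120.2, 89.6 and 25.98 CPM in NaCl tumors 1 to 3 and 221, 82.7 and 225 CPM in H89 tumors 1 to 3. Here H89 tumor 2 was below both NaCl tumor 1 and NaCl tumor 2, so the overlap was wider. The means of Igtp were 78.6 ± 48.1 CPM in NaCl and 176 ± 80.8 CPM in H89 tumors, and the log2 fold change was 1.16 (SE 0.55). Leaving out NaCl tumor 3 brought the log2 fold changes of these regulators down to 0.80 for Irgm1, 0.80 for Irgm2 and 0.75 for Igtp.

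The 3 regulators together had 282, 230.3 and 81.05 CPM in NaCl tumors 1 to 3 and 538, 235 and 546 CPM in H89 tumors 1 to 3, with a log2 fold change of 1.15 (SE 0.47). Irgm2 made up a nearly fixed part of this sum, 22.5% to 23.8% in the 6 tumors. Igtp and Irgm1 shared the remainder unevenly. The part of Igtp was 42.7%, 38.9% and 32.1% in NaCl tumors 1 to 3 and 41.1%, 35.3% and 41.1% in H89 tumors 1 to 3, and it was lowest in NaCl tumor 3 and H89 tumor 2, the tumor of each group with the least IRG RNA.

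**Figure D1:**
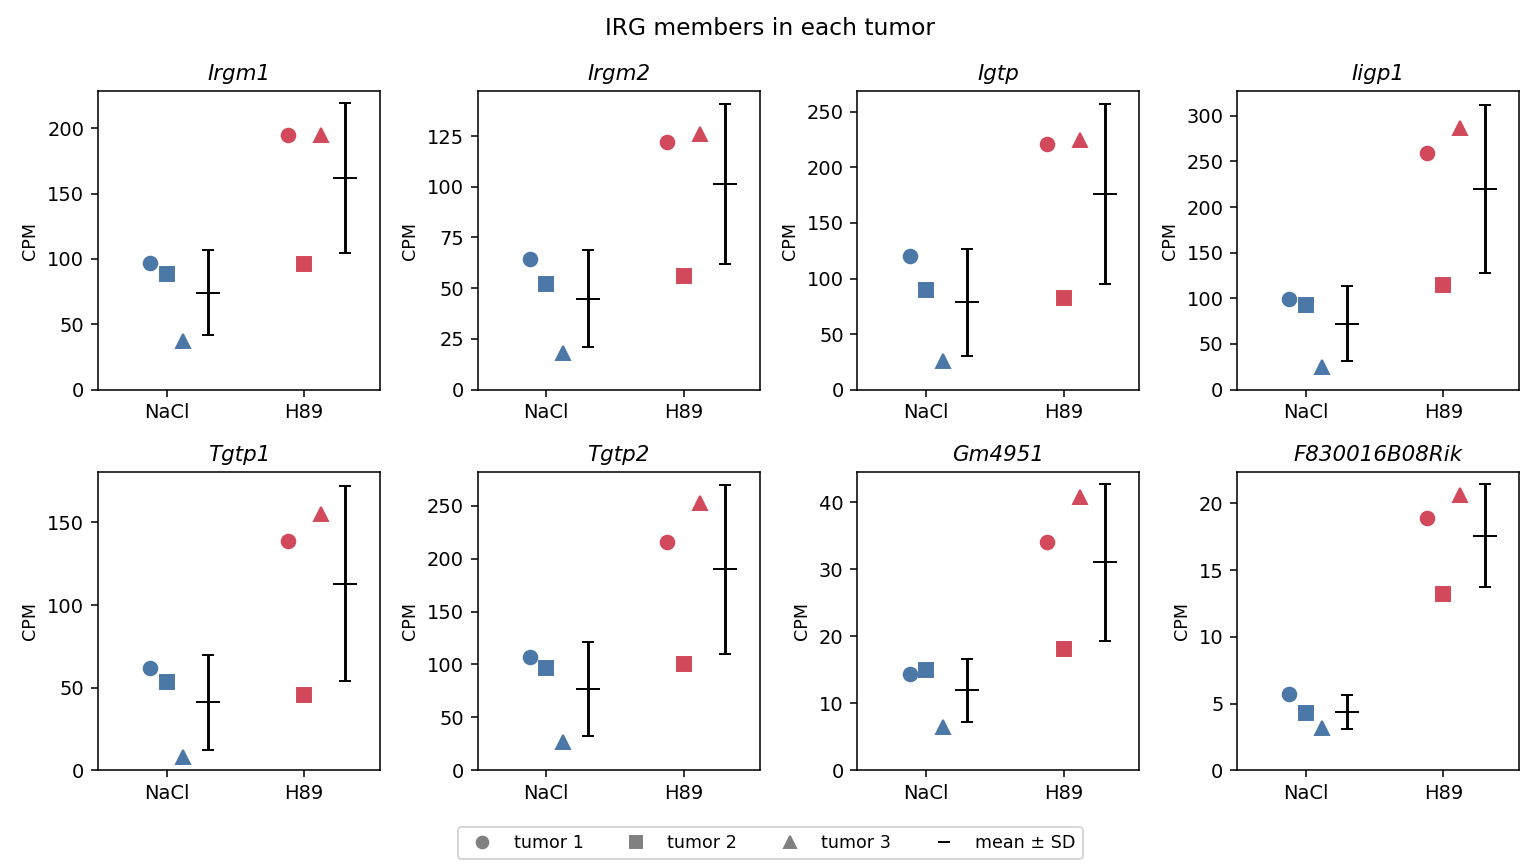
Level of each of the 8 IRG members (CPM, axis from 0) in the 3 NaCl and 3 H89 tumors, with a shape for each tumor number and the group mean ± SD. NaCl tumor 3 is the lowest point and H89 tumor 3 the highest in every panel, while H89 tumor 2 sits near NaCl tumors 1 and 2 in most.

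Tgtp1 and Tgtp2 encode nearly identical effectors that bind early to parasite vacuoles. The Tgtp1 level was 62.1, 53.3 and 8.25 CPM in NaCl tumors 1 to 3 and 139, 45.4 and 155 CPM in H89 tumors 1 to 3. NaCl tumor 3 stood far below all others, H89 tumor 2 was under NaCl tumors 1 and 2, and the groups overlapped. Tgtp1 had means of 41.2 ± 28.9 CPM in NaCl and 113 ± 59.1 CPM in H89 tumors and a log2 fold change of 1.46 (SE 0.69). Tgtp2 had 107, 97.1 and 26.4 CPM in NaCl tumors 1 to 3 and 216, 100.4 and 253 CPM in H89 tumors 1 to 3. Its H89 tumor 2 lay between NaCl tumors 1 and 2, so these groups overlapped too. Tgtp2 had means of 76.99 ± 44.1 CPM in NaCl and 189.8 ± 79.6 CPM in H89 tumors and a log2 fold change of 1.30 (SE 0.51). Without NaCl tumor 3, the log2 fold change was 0.97 for Tgtp1 and 0.89 for Tgtp2.

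Iigp1 encodes an effector that coats parasite vacuoles. It lies on chromosome 18, in a group with Gm4951 and F830016B08Rik, at chr18:60376027-60392634 on the plus strand. Its level was 98.7, 92.8 and 25.2 CPM in NaCl tumors 1 to 3 and 259, 115 and 286 CPM in H89 tumors 1 to 3. The groups did not overlap, but the lowest H89 value, in tumor 2, was close to NaCl tumors 1 and 2, and NaCl tumor 3 was again the lowest. Iigp1 averaged 72.2 ± 40.8 CPM in NaCl and 220.0 ± 92.3 CPM in H89 tumors. Without NaCl tumor 3 its log2 fold change of 1.61 (SE 0.51) became 1.20. Of the summed CPM of the 8 members, in which longer genes weigh more, Iigp1 made up 16.7% to 18.8% in NaCl tumors. It made up at least 21.5% in H89 tumors, H89 tumor 2 included. The part of every other member in this sum overlapped between the groups. The members were chosen with this contrast in view, so nothing is read from the part of Iigp1.

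Gm4951 and F830016B08Rik carry the RefSeq synonyms Ifgga2 and Ifgga4, in the same series as Ifgga1 for Iigp1, and what their proteins do is less well known. Gm4951 is at chr18:60212080-60247820 and F830016B08Rik at chr18:60293380-60303016, both on the plus strand. Gm4951 measured 14.3, 14.98 and 6.48 CPM in NaCl tumors 1 to 3 and 34.1, 18.1 and 40.8 CPM in H89 tumors 1 to 3. All H89 values were above all NaCl values, with H89 tumor 2 nearest to the NaCl tumors. Gm4951 averaged 11.9 ± 4.73 CPM in NaCl and 31.02 ± 11.6 CPM in H89 tumors, and its log2 fold change of 1.38 (SE 0.37) was 1.08 without NaCl tumor 3.

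F830016B08Rik had 5.73, 4.26 and 3.20 CPM in NaCl tumors 1 to 3 and 18.9, 13.2 and 20.6 CPM in H89 tumors 1 to 3. Its tumors lay closer together within each group than those of the other members. H89 tumor 2 was well above the NaCl tumors, and NaCl tumor 3, though lowest, was nearer to the other NaCl tumors. The highest NaCl value was 1.79 times the lowest, where this ratio was 2.31 for Gm4951, 2.63 for Irgm1, 4.63 for Igtp and 7.53 for Tgtp1. Nothing is read from this, since the choice of F830016B08Rik as clearly raised favours a small spread. Its log2 fold change of 2.00 (SE 0.25) was 1.81 without NaCl tumor 3 and lay between 1.81 and 2.23 with any 1 tumor left out. Of the summed CPM of Iigp1, Gm4951 and F830016B08Rik, F830016B08Rik made up 4.8%, 3.8% and 9.2% in NaCl tumors 1 to 3 and 6.0%, 9.1% and 5.9% in H89 tumors 1 to 3. Its part was thus highest in NaCl tumor 3 and H89 tumor 2, where Iigp1 was lowest within each group, and the groups overlapped in this measure.

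Over the 8 members, the log2 fold changes had a median of 1.34, and the median over all 13119 genes tested was 0.0041. All 8 were above 1, as were 2.70% of the tested genes. The 3 members whose groups did not overlap, all with H89 above, were Iigp1, Gm4951 and F830016B08Rik, and 15.2% of the tested genes had H89 above without overlap. With CPM from the plain totals, an alternative chosen after seeing the data, 5 members did not overlap, the added ones being Irgm1 and Tgtp2, and the share of the tested genes rose to 20.5%. At an adjusted p under 0.05 (edgeR's quasi-likelihood test, Benjamini-Hochberg), 1 of the 8 was called, F830016B08Rik, against 1.59% of the tested genes in either direction and 0.861% in the direction of higher levels in H89. With any 1 of the 6 tumors left out, 0 of the 8 were called. In those fits edgeR called 0 to 12 of all genes tested, and 2402 to 3441 genes had an unadjusted p under 0.05. With all 6 tumors, DESeq2, run without the filter on low levels, also called 1 of the 8 and 7.39% of its 18837 genes, and limma after quantile normalization called 1 of the 8 and 0.617% of the tested genes. These counts come from the contrast that chose the members, so nothing is read from them.

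**Figure D2:**
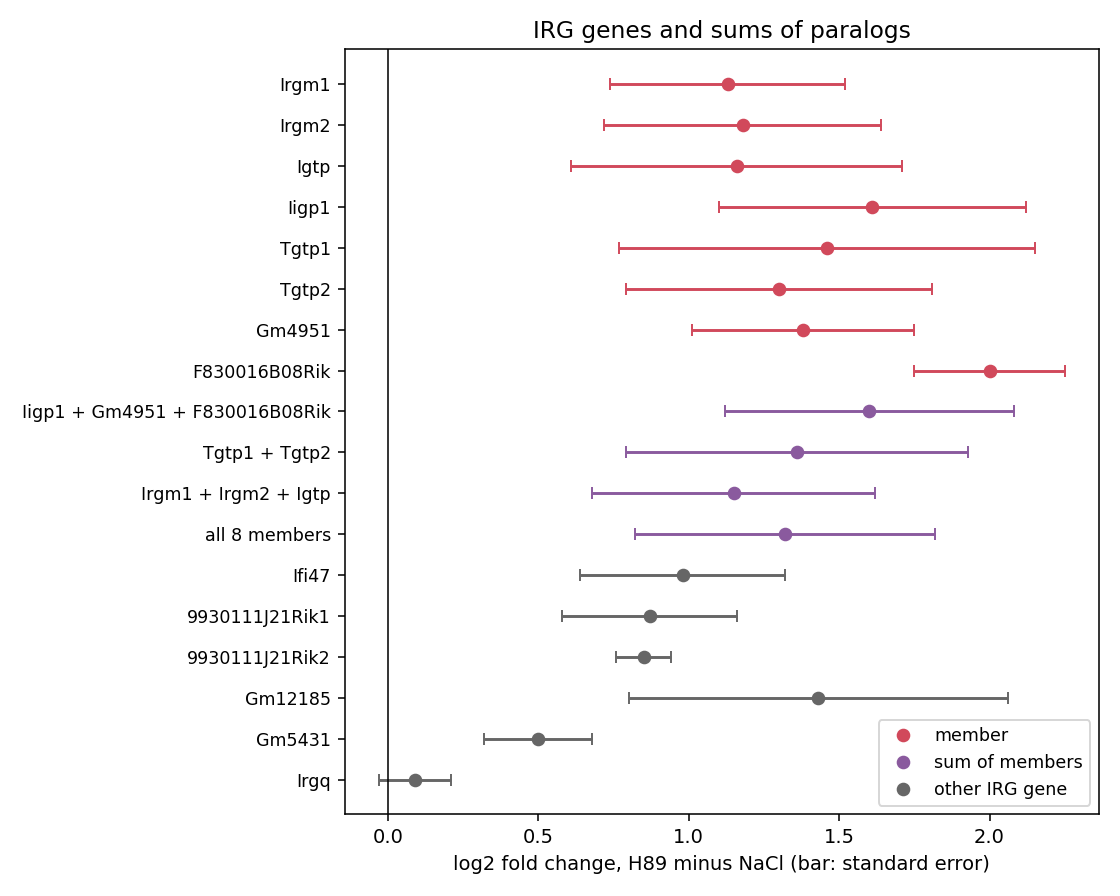
Log2 fold change of H89 minus NaCl with its standard error for the 8 members, for sums of related members and for the other IRG genes, with 0 marked by a line. The members lie between 1.13 and 2.00, and the standard errors are widest for Tgtp1 and narrowest, among members, for F830016B08Rik.

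The 8 members followed 1 order of tumors at the extremes. NaCl tumor 3 was the lowest and H89 tumor 3 the highest tumor for all 8, with H89 tumor 1 second for all 8, although H89 tumors 1 and 3 were nearly equal for the regulators. Of all tested genes, 4.8% (625 genes) had NaCl tumor 3 lowest and H89 tumor 3 highest. H89 tumor 2 came next for 3 members and lay below NaCl tumor 1 for the other 5. The summed level of the 8 was 569.9, 493 and 151 CPM in NaCl tumors 1 to 3 and 1204, 527 and 1302 CPM in H89 tumors 1 to 3. H89 tumor 2 was therefore below NaCl tumor 1 in the sum, and the groups overlapped. The log2 fold change of the sum was 1.32 (SE 0.50).

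The spread within groups was larger for the members than for most tested genes. The pooled SD of log2(CPM + 0.5) within groups had a median of 0.88 over the members and 0.15 over all tested genes. It was 0.86 over the GBP genes and 0.73 over the T and NK cell markers listed further on, so a spread of this size was not limited to the members. It was 1.31 for Tgtp1, 1.01 for Igtp, 0.94 for Tgtp2, 0.93 for Iigp1, 0.82 for Irgm2, 0.68 for Irgm1 and 0.63 for Gm4951. Each of these 7 members varied more within groups than 97.7% to 99.8% of the tested genes. F830016B08Rik had the smallest value, 0.35, which was above that of 89.2% of the tested genes. It was chosen as clearly raised, and a small spread is part of that choice, so nothing is read from its place. The median log2 fold change of the members ranged from 0.93, without NaCl tumor 3, to 1.63, without H89 tumor 2.

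To compare the members with each other, CPM were divided by the mean length of each gene's protein-coding transcripts in GENCODE. In NaCl tumors the level per kb was 41.96 ± 25.7 for Igtp, 34.1 ± 14.98 for Irgm1, 31.2 ± 21.9 for Tgtp1, 27.4 ± 15.7 for Tgtp2 and 25.6 ± 14.5 for Iigp1, all in CPM per kb. Neighbours in this order differed by less than the larger SD of the pair, and so did Iigp1 and the next gene, Irgm2, at 12.9 ± 6.87. Gm4951, at 4.51 ± 1.79, was below Irgm2 by more than either SD, although its highest tumor was just above the lowest tumor of Irgm2. F830016B08Rik, at 1.33 ± 0.385, was below Gm4951 in each tumor.

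In H89 tumors the order per length was Igtp (93.9 ± 43.1 CPM per kb), Tgtp1 (85.6 ± 44.8), Iigp1 (77.9 ± 32.7), Irgm1 (74.6 ± 26.3) and Tgtp2 (67.5 ± 28.3), again with neighbours closer than their spread. Irgm2 (29.1 ± 11.3), Gm4951 (11.7 ± 4.40) and F830016B08Rik (5.33 ± 1.17) followed, each below its neighbour by more than the larger SD of the pair. In both groups the least abundant members per length were Gm4951 and F830016B08Rik. The place of Tgtp1 depended on the length used. Its 3 transcripts average 1320 bases and the longest has 2823, and with the longest transcript its level fell to 14.6 CPM per kb in NaCl and 40.04 in H89 tumors, below the other 4 of the upper 5 genes in each group.

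**Figure D3:**
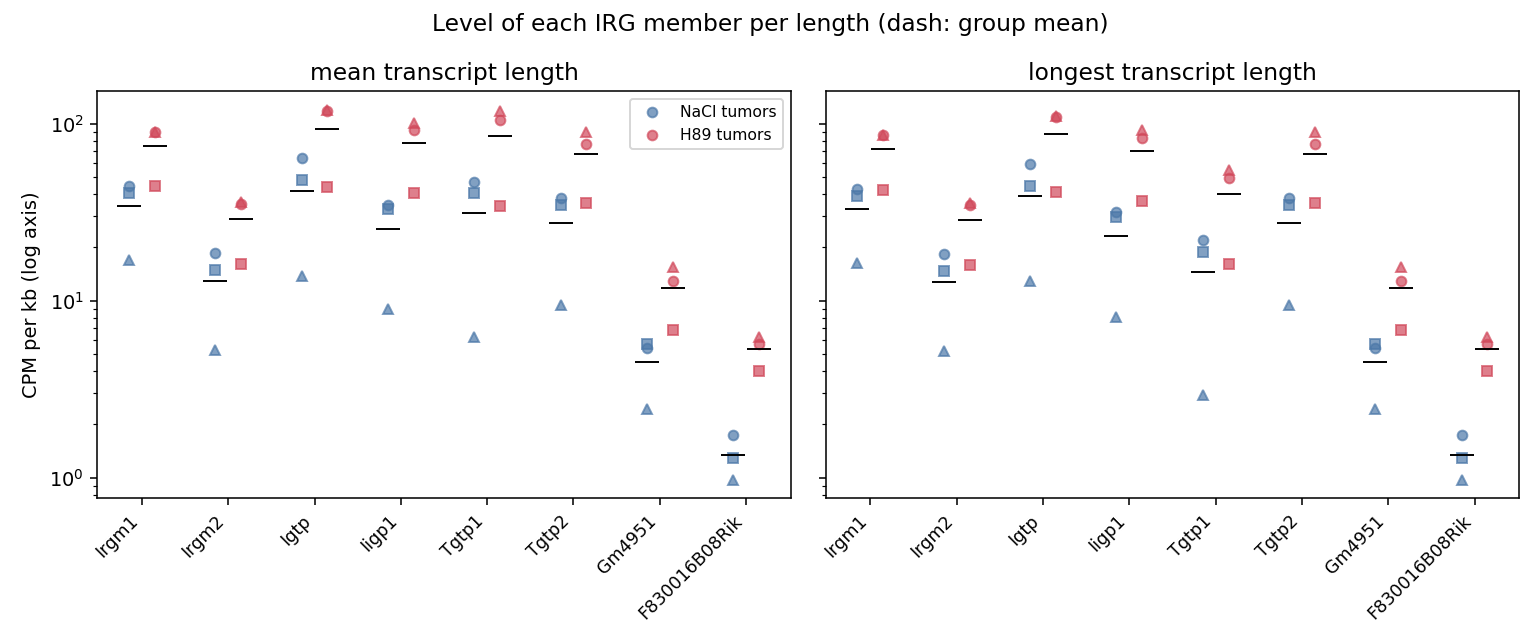
Level per length of each member (CPM per kb, log axis) in the NaCl and H89 tumors, with a dash at each group mean, by mean and by longest transcript length. The group means of Gm4951 and F830016B08Rik lie below those of the other 6 members, and Tgtp1 moves down when the longest transcript is used.

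Reads of near-identical genes can be divided between them, so the sequence shared by the members was measured. GENCODE transcripts were split into all words of 31 bases, and words found in a transcript of another gene were counted. Of the words of Irgm1, 97.1% were in no other gene, and the share was 93.1% for Iigp1, 92.3% for F830016B08Rik, 89.3% for Irgm2, 86.0% for Gm4951 and 84.1% for Igtp. F830016B08Rik shared 0 words with any other IRG gene examined, so no exact match of this length to a relative was found. The pair Tgtp1 and Tgtp2 stood apart, with 15.6% (486 of 3117 words) and 9.5% (275 of 2908 words) found in no other gene. Of the words of Tgtp1, 83.2% were in Tgtp2, and of those of Tgtp2, 89.2% were in Tgtp1. The next largest overlaps between members were Igtp with Irgm2 (15.9% of Igtp and 9.2% of Irgm2) and Gm4951 with Iigp1 (10.4% of Gm4951 and 4.6% of Iigp1).

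The coding sequences gave the same pairs. Tgtp1 and Tgtp2 were 99.7% identical, with 4 differences in 1245 bases. Iigp1 and Gm4951 were 88.0% identical, and Irgm2 and Igtp 73.2%. F830016B08Rik was 69.5% identical to Gm4951 and 68.3% to Iigp1. Irgm1 was 68.3% identical to Igtp and 67.0% to Irgm2, and every other pair of members lay between 58.0% and 64.3%. In the annotation, exons of Igtp overlap exons of Irgm2 on the same strand, and exons of Tgtp1 overlap exons of Gm12185, another IRG gene.

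The counts themselves were also examined, since an estimated count departs from a whole number when reads are shared between genes or transcripts in fractions. In at least 4 of the 6 tumors, the count lay more than 0.1 from a whole number for 7 of the 8 members (87.5%) and for 34.2% of the tested genes. The largest distance was 0.495 for Tgtp1, 0.48 for Igtp and 0.433 for Tgtp2. Iigp1 was the exception among members, with distances of 0.00 in all NaCl tumors and 0.13, 0.16 and 0.12 in H89 tumors 1 to 3. F830016B08Rik reached 0.404, although it shared 0 words with the other IRG genes examined. Its shared words were in genes other than those, such as Gm13936 (2.5%).

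For Tgtp1 and Tgtp2 the sum is the safer measure, since a read from most of either transcript matches both. The summed level was 169.6, 150.4 and 34.7 CPM in NaCl tumors 1 to 3 and 355, 146 and 408 CPM in H89 tumors 1 to 3. NaCl tumor 3 was lowest and H89 tumor 2 was just under NaCl tumor 2, so the groups overlapped. The log2 fold change of the sum was 1.36 (SE 0.57), between those of the separate genes. The part of Tgtp1 in the summed level was 36.6%, 35.4% and 23.8% in NaCl tumors 1 to 3 and 39.1%, 31.1% and 38.0% in H89 tumors 1 to 3. This part was lowest in the tumor of each group with the least of both genes.

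**Figure D4:**
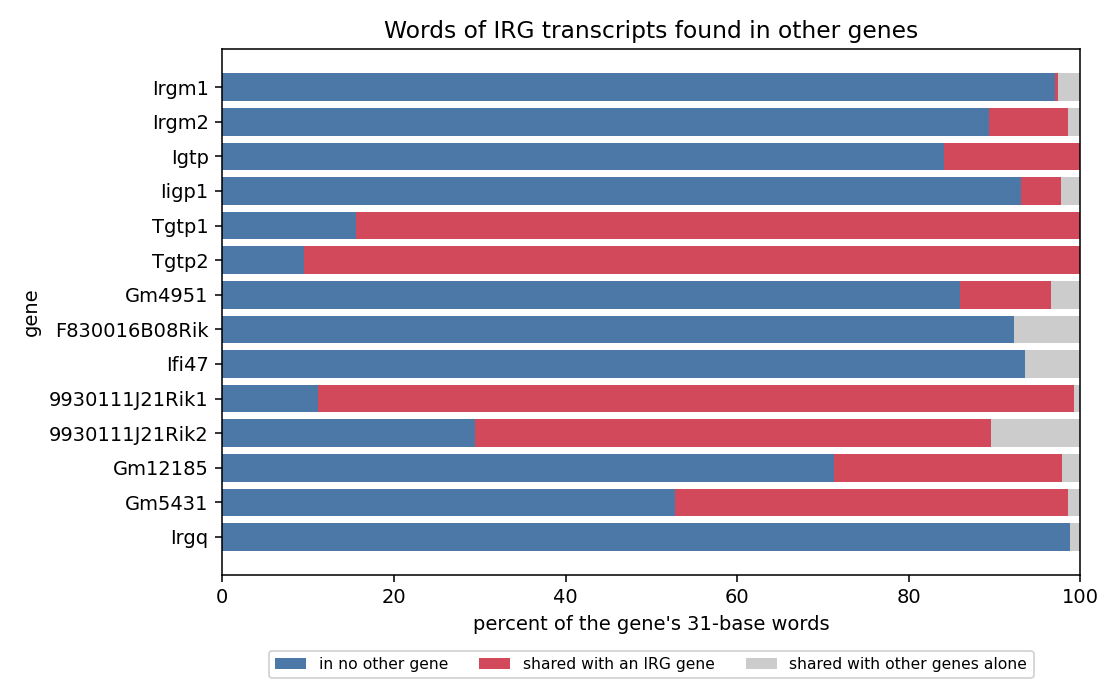
Percent of the 31-base words of each IRG gene's transcripts that are in no other gene, in another IRG gene or in other genes alone. Tgtp1 and Tgtp2 have 15.6% and 9.5% of their words to themselves, while the other 6 members have 84.1% to 97.1%.

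Another 8 IRG genes of the list were in the table, and 6 of them were tested. Of these 6, 1 was called, 9930111J21Rik2, higher in H89 with a log2 fold change of 0.85 (SE 0.09) and an adjusted p of 0.0287 in edgeR's test. It measured 47.8, 53.2 and 49.4 CPM in NaCl tumors 1 to 3 and 98.96, 87.8 and 84.3 CPM in H89 tumors 1 to 3. All 3 H89 tumors were above all NaCl tumors, and NaCl tumor 3 and H89 tumor 2 did not stand out as they did for the members. Its pooled SD within groups, 0.10, was above that of 23.1% of the tested genes. The call held without H89 tumor 3 (adjusted p 0.0448) and was lost without NaCl tumor 1 (0.0828), NaCl tumor 2 (0.119), NaCl tumor 3 (0.13), H89 tumor 1 (0.0667) or H89 tumor 2 (0.098), with log2 fold changes of 0.78 to 0.90 throughout. The call was also lost in edgeR with the replicate number as a block (adjusted p 0.0641). DESeq2 gave an adjusted p of 1.33e-10, and limma after quantile normalization gave 0.0197. Of its words, 59.5% are also in 9930111J21Rik1 and 29.4% are in no other gene, and its counts lay up to 0.474 from a whole number.

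The remaining IRG genes did not pass in edgeR's test. Ifi47, an interferon-inducible relative of the effectors, had a log2 fold change of 0.98 (SE 0.34) and an adjusted p of 0.135. For 9930111J21Rik1 these were 0.87 (SE 0.29) and 0.129, and for Gm12185 1.43 (SE 0.63) and 0.210. Gm5431 had 0.50 (SE 0.18) and 0.149, and Irgq, a distant relative, 0.09 (SE 0.12) and 0.669. Over the alternatives these ranged from 0.67 to 1.20 for Ifi47, 0.61 to 1.09 for 9930111J21Rik1, 0.97 to 2.07 for Gm12185, 0.31 to 0.67 for Gm5431 and -0.01 to 0.18 for Irgq. The median of the 6 was 0.86. Gm12187 and Irgc1 were under 1 CPM in all tumors and were not tested, and the expression of Gm12250 was not analysed here. A seventh gene, Gm4841, was matched by its RefSeq synonym Ifgga3 after values were seen and is outside these counts. It measured 17.5, 11.6 and 2.65 CPM in NaCl tumors 1 to 3 and 35.02, 13.3 and 33.6 CPM in H89 tumors 1 to 3, an order of tumors close to that of the members, with overlapping groups, a log2 fold change of 1.37 (SE 0.60) and an adjusted p of 0.206. In the promoter windows, Gm12185 held 1 match to each motif and 9930111J21Rik1 1 match to the GAAA repeat alone. The window of Gm12250 held 2 matches to the GAAA repeat and 1 to TTCNNNGAA. The windows of Ifi47, 9930111J21Rik2, Gm5431 and Irgq did not hold these letters.

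The likeness of patterns over the 6 tumors was measured as the root mean square difference of log2(CPM + 0.5), centred on each gene's mean, where 0 means the same pattern. Against the mean pattern of the 8 members, the nearest of the tested genes outside the family were Gbp3 (0.113), Gbp7 (0.115), Gbp5 (0.13), Il18bp (0.173) and Gbp10 (0.174), where the median over all tested genes was 1.015. Among the members the distance was 0.104 for Tgtp2, 0.114 for Irgm2, 0.157 for Iigp1, 0.184 for Igtp, 0.198 for Irgm1 and 0.211 for Gm4951. Tgtp1 (0.415), with its deeper fall in NaCl tumor 3, and F830016B08Rik (0.468), with its smaller spread, were farthest from the mean to which they contribute. Of the other IRG genes, Gm12185 (0.283) and Ifi47 (0.301) were nearer than 9930111J21Rik1 (0.694), 9930111J21Rik2 (0.740), Gm5431 (0.795) and Irgq (0.966). Gm4841, matched by its synonym after values were seen, was nearer than these, at 0.236.

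F830016B08Rik had other nearest genes than the mean of the members. They were Klrd1 at a distance of 0.232, Gbp8 at 0.247 and Ms4a4b at 0.271. Klrd1 had 2.73, 1.57 and 1.28 CPM in NaCl tumors 1 to 3 and 8.02, 4.04 and 10.9 CPM in H89 tumors 1 to 3. All its H89 values were above its NaCl values, with the same highest and lowest tumors as F830016B08Rik. Its log2 fold change was 2.04 (SE 0.42), and it was 1.60 (SE 0.34) for Gbp8 and 1.68 (SE 0.41) for Ms4a4b. These 3 genes were picked by their likeness to F830016B08Rik over the same tumors, so their differences are a description, with no test.

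**Figure D5:**
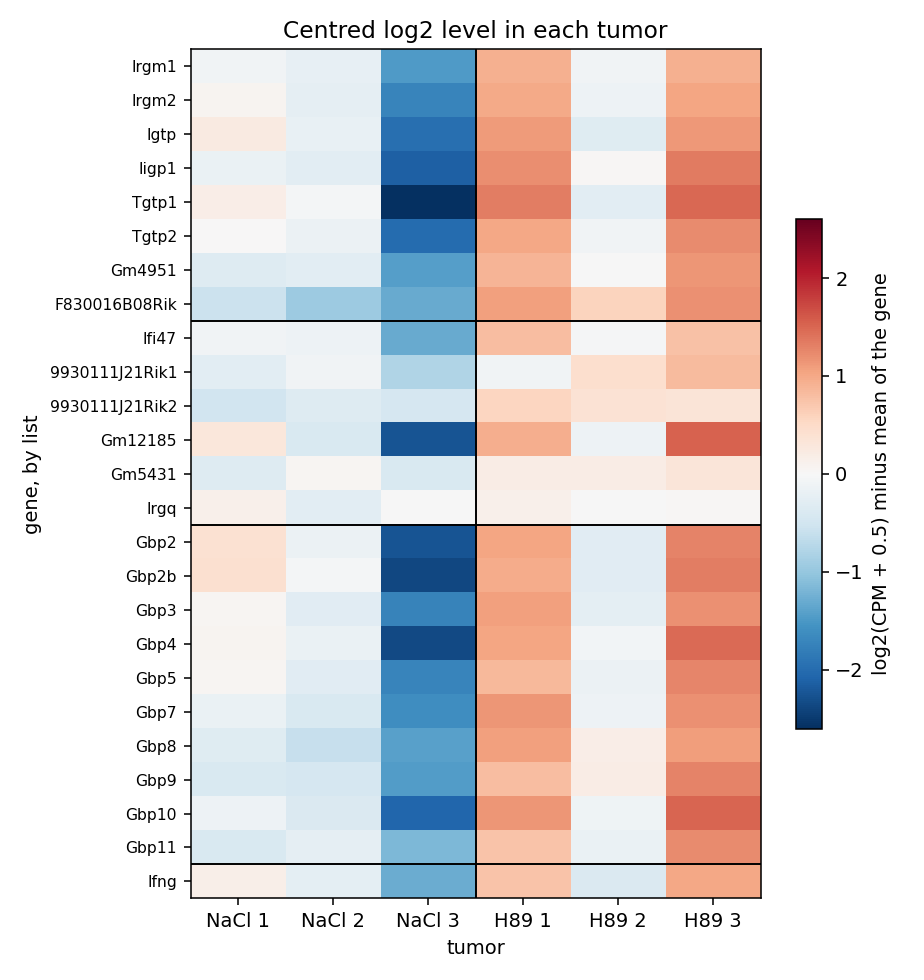
Log2(CPM + 0.5) minus the mean of each gene over the 6 tumors, for the IRG members, the other IRG genes, the GBP genes and Ifng, with a line between the groups. NaCl tumor 3 is low and H89 tumors 1 and 3 are high for the members and the GBP genes, and Irgq shows little of this pattern.

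The other genes of the pathway were taken from lists of interferon and IRG-related genes, and 1 of the 56 tested genes on them was called, the IRG gene 9930111J21Rik2. Limma after quantile normalization also called 1 of the 56. Over all tested genes the shares called were 1.59% by edgeR and 0.617% by limma. Without the filter on low levels, which leaves 62 genes of these lists, edgeR called 4 and DESeq2 16, beside 1.65% and 7.39% of all 18837 genes. All counts of DESeq2 given for the lists that follow are from this fit without the filter. At an unadjusted p under 0.05 in edgeR's test, 22 were higher and 9 lower, and 25.0% of all tested genes had such a p. With 1 tumor left out, the count called was 1 without H89 tumor 3 and 0 without any other tumor. It was 0 with the replicate number as a block.

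Of the interferon genes, 1 of 10 was abundant enough to be tested. This was Ifng, which encodes interferon gamma, with 1.04, 0.671 and 0.0731 CPM in NaCl tumors 1 to 3 and 1.82, 0.577 and 2.31 CPM in H89 tumors 1 to 3. Its order of tumors was that of Igtp and Tgtp1, with NaCl tumor 3 lowest and H89 tumor 2 below NaCl tumors 1 and 2. The counts behind these levels were small, from 2 in NaCl tumor 3 to 76 in H89 tumor 3. The log2 fold change was 1.39 (SE 0.74), with an adjusted p of 0.283, and it ranged over the alternatives from 0.68, with quantile normalization in limma, to 2.07, without NaCl tumor 1. Without NaCl tumor 3 it was 0.86. The other 9 interferon genes were under 1 CPM in all tumors, and Ifna1, Ifna5, Ifnk, Ifnl2 and Ifnl3 were at 0 in all 6. A count of 0 allows up to 3 counts, or 0.0939 to 0.111 CPM at these totals, for counting error alone.

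The 7 interferon receptor and kinase genes had a median log2 fold change of 0.09. Their most abundant genes were Jak1 (0.17, SE 0.11), Ifngr2 (-0.08, SE 0.07) and Ifnar1 (0.09, SE 0.09), with adjusted p of 0.393, 0.527 and 0.587. These small values moved with the setting, from 0.05 to 0.26 for Jak1, from -0.11 to -0.04 for Ifngr2 and from 0.03 to 0.15 for Ifnar1. Of the 7, edgeR, DESeq2 and limma called 0, and 0 had an unadjusted p under 0.05 in edgeR's test. Their summed level was 429, 422 and 454 CPM in NaCl tumors 1 to 3 and 429, 449 and 506 CPM in H89 tumors 1 to 3, with little of the members' difference between tumors.

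The 9 interferon-activated factors had a median log2 fold change of 0.92. Irf1, which acts on promoters of interferon-inducible genes, measured 117, 107 and 56.9 CPM in NaCl tumors 1 to 3 and 185, 131 and 214 CPM in H89 tumors 1 to 3. All 3 H89 tumors were above all NaCl tumors, NaCl tumor 3 was lowest and H89 tumor 3 highest. Irf1 had a log2 fold change of 0.92 (SE 0.28) with an adjusted p of 0.106, and Irf7 had 0.72 (SE 0.30) with 0.187. DESeq2 gave Irf1 an adjusted p of 0.00664. Without H89 tumor 1, Irf7 had 0.35. Of the 9, edgeR called 0, DESeq2 4 and limma 0, and 7 had an unadjusted p under 0.05 in edgeR's test. The distance from the mean pattern of the members was 0.394 for Irf1 and 0.319 for Ifng.

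The guanylate-binding proteins (GBP) are a related family of interferon-inducible GTPases that act beside the IRG on the same vacuoles. The 10 tested genes had a median log2 fold change of 1.45, and all 10 had NaCl tumor 3 lowest and H89 tumor 3 highest. Their summed level was 942, 722 and 206 CPM in NaCl tumors 1 to 3 and 1726, 739 and 2081 CPM in H89 tumors 1 to 3, so H89 tumor 2 again lay between NaCl tumors 1 and 2. The most abundant were Gbp2 (1.13, SE 0.62), Gbp2b (1.09, SE 0.64) and Gbp7 (1.45, SE 0.44), with adjusted p of 0.293, 0.327 and 0.105. Of the 10, edgeR called 0, DESeq2 3 and limma 0, and 8 had an unadjusted p under 0.05 in edgeR's test. Without NaCl tumor 3, Gbp2 had 0.68 and Gbp2b 0.62. Without NaCl tumor 3 the median of the GBP genes was 1.06, beside 0.93 for the IRG members. Promoter windows were available for Gbp2, Gbp2b, Gbp3, Gbp5 and Gbp7 and not for the other GBP genes. Those of Gbp5 and Gbp7 each held 1 match to the GAAA repeat and 2 to TTCNNNGAA. Gbp2 and Gbp2b each held 1 match to the GAAA repeat alone. A window of Gbp3 held 2 matches to the GAAA repeat alone, and its other window held neither motif. The pair of motifs was thus not limited to IRG genes.

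The 7 feedback genes of the interferon pathway had a median of 0.09. Their most abundant genes were Ptpn1 (-0.18, SE 0.08), Socs3 (-0.11, SE 0.15) and Ptpn6 (0.47, SE 0.15), with adjusted p of 0.204, 0.669 and 0.122. Over the alternatives Ptpn1 ranged from -0.21 to -0.12, Socs3 from -0.29 to -0.01 and Ptpn6 from 0.35 to 0.59. Here edgeR called 0, DESeq2 1 and limma 0, and 2 had an unadjusted p under 0.05 in edgeR's test. IRG proteins are directed to vacuoles with the help of autophagy proteins and ubiquitin adaptors. The 16 genes of this targeting machinery had a median of -0.21, with 11 of them lower in H89 tumors. Their most abundant gene, Arhgdia, had a log2 fold change of -0.37 (SE 0.12) and an adjusted p of 0.117, and Gabarap had -0.35 (SE 0.12) and 0.132. Over the alternatives Arhgdia ranged from -0.47 to -0.10, the latter with quantile normalization in limma, and Gabarap from -0.43 to -0.24, and DESeq2 called both, with adjusted p of 0.0253 and 0.0455. Sqstm1, which encodes the adaptor p62, measured 563, 425 and 613 CPM in NaCl tumors 1 to 3 and 269, 311 and 362 CPM in H89 tumors 1 to 3. All 3 H89 tumors were below all NaCl tumors, and the log2 fold change was -0.77 (SE 0.16) with an adjusted p of 0.0609 in edgeR's test and 0.000151 in DESeq2. Of the 16, edgeR called 0, DESeq2 7 (1 higher, 6 lower) and limma 0, and 1 was higher and 9 lower at an unadjusted p under 0.05 in edgeR's test.

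Marker genes of cell types that can carry IRG RNA or interferon were set beside the members. The T and NK cell markers had 13 of 13 genes in the table tested and none at 0, and their most abundant gene was Gzmb. Their summed level was 134, 78.1 and 30.5 CPM in NaCl tumors 1 to 3 and 142, 84.9 and 253 CPM in H89 tumors 1 to 3. In the sum, NaCl tumor 3 was lowest and H89 tumor 3 highest, as for the members, and 7 of the 13 genes had this order. The median log2 fold change was 1.20, and it was 0.88 without NaCl tumor 3. Of the 13, edgeR called 0, DESeq2 3 and limma 0, and 6 had an unadjusted p under 0.05 in edgeR's test. T and NK cells make interferon gamma and also express IRG genes, and their part in the members' levels was not tested.

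Macrophage markers (10 of 10 tested, most abundant Lyz2, none at 0) summed to 2173, 3464 and 2965 CPM in NaCl tumors 1 to 3 and 2689, 2655 and 3275 CPM in H89 tumors 1 to 3. The sum was highest in NaCl tumor 2, while the mean of log2(CPM + 0.5) over the list was highest in H89 tumor 3 (7.82), and both were lowest in NaCl tumor 1. The median log2 fold change was 0.06, or 0.19 without NaCl tumor 3. Dendritic cell markers (6 of 8 tested, most abundant Zbtb46, none at 0 in all tumors) summed to 19.6, 15.3 and 14.6 CPM in NaCl tumors 1 to 3 and 22.4, 28.2 and 29.5 CPM in H89 tumors 1 to 3. Here H89 tumor 2 was near H89 tumor 3 and above all NaCl tumors, while most members had H89 tumor 2 near NaCl tumors 1 and 2, and the median was 0.92. In edgeR's test 0 macrophage and 0 dendritic cell markers were called, with 1 and 5 at an unadjusted p under 0.05. DESeq2 called 0 and 2, and limma 0 and 0. The part of these cells in the members' levels was not tested.

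Endothelial markers (8 of 8 tested, most abundant Cdh5, none at 0) summed to 123, 170.1 and 204 CPM in NaCl tumors 1 to 3 and 107, 155 and 123 CPM in H89 tumors 1 to 3, with a median of -0.34, or -0.20 without NaCl tumor 3. They were highest in NaCl tumor 3, where the IRG members were lowest. Fibroblast markers (8 of 8 tested, most abundant Col1a2, none at 0) summed to 2843, 2670.1 and 2596 CPM in NaCl tumors 1 to 3 and 3699.6, 3525 and 2919 CPM in H89 tumors 1 to 3, with a median of 0.32. Their sum was above all NaCl values in every H89 tumor, but NaCl tumor 3 was close to NaCl tumor 2. The epithelial tumor markers (4 of 10 tested, none at 0 in all tumors) summed to 16.9, 14.96 and 26.5 CPM in NaCl tumors 1 to 3 and 16.9, 11.5 and 11.4 CPM in H89 tumors 1 to 3, and the sum, whose largest single part was Krt18, was highest in NaCl tumor 3. Krt8, Krt19, Epcam, Cldn3 and Cldn4, named after their values were seen, were instead highest in H89 tumor 1, at 2.17, 2.53, 1.18, 0.606 and 0.642 CPM. The median log2 fold change of those 4 was 0.54, or 1.09 without NaCl tumor 3, and Krt18 had -1.04 (SE 0.23) with an adjusted p of 0.0653. Of these 3 lists edgeR called 0 genes, with 2, 4 and 1 at an unadjusted p under 0.05. DESeq2 called 0, 1 and 1, and limma called 0 in each. Their part in the members' levels was not tested.

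Keratinocyte markers (1 of 7 tested, Krt10, with Krt1, Krt15 and Dsg1a at 0) summed to 2.84, 2.01 and 3.47 CPM in NaCl tumors 1 to 3 and 3.64, 3.62 and 2.98 CPM in H89 tumors 1 to 3, which gives little sign of skin in any tumor. Skeletal muscle markers (3 of 8 tested, most abundant Acta1, none at 0 in all tumors) summed to 2.99, 1.76 and 1.54 CPM in NaCl tumors 1 to 3 and 20.4, 1.76 and 1.43 CPM in H89 tumors 1 to 3. H89 tumor 1 alone stood out. In edgeR's test 0 genes of these lists were called, with 0 and 1 at an unadjusted p under 0.05, and DESeq2 and limma called 0. The part of skin and muscle in the members' levels was not tested.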

How the data were processed

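The data are bulk RNA sequencing of 6 CT26 tumors, 3 of NaCl mice and 3 of H89-treated mice, grouped by their labels. The authors deposited estimated counts for each of 23557 genes by symbol. The table is called TPM, but the values of each tumor summed to 27067349 to 31958793 and not to 1000000, and the tests had been laid out for either unit. The submitters' notes name kallisto, DESeq2 and GRCm38, without versions.

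Counts were rounded, and genes averaging 0.5 CPM or more over all tumors (13119) were tested in R 4.3.3 with edgeR 4.0.16 (TMM, quasi-likelihood test, treatment as the only term, Benjamini-Hochberg over all tested genes, threshold 0.05). The SE was taken from the quasi-likelihood F statistic, as the size of the log2 fold change over the root of F. A sum of members was fitted as 1 added gene. CPM use totals scaled by the TMM factors, and patterns use log2(CPM + 0.5). Words of 31 bases, transcript lengths and coding sequences come from GENCODE M21, and promoters and synonyms from RefSeq (GRCm38.p6). Coding sequences and promoters were aligned globally, end gaps free, with identity over aligned bases (Biopython 1.88). The authors' annotation may differ from both.

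The genes named are the 8 members, every other IRG gene measured, up to 3 of the most abundant tested genes of each pathway list, the most abundant gene of each marker list, every called gene of these lists, the 5 genes nearest to the members' mean pattern and the 3 nearest to F830016B08Rik. The members and lists were chosen with earlier results of these data known.

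Alternatives were DESeq2 1.42.0 without the filter, quantile normalization with limma 3.58.1, median ratio normalization, a filter at a mean of 5 CPM or no filter, limma on log2(CPM + 0.5) and log2(CPM + 1), the replicate number as a block, longest transcript lengths and each tumor left out in turn. CPM from plain totals was chosen after seeing the data. At these totals 1 count is 0.0313 to 0.0369 CPM, and 3 tumors a group limit the precision.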

Additional observations from a re-analysis of the deposited data

How the results depend on the processing

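The log2 fold changes of the 8 members were positive in all 112 combinations of member and alternative (14 alternatives), between 0.75 and 2.23. They moved by less than 1 SD of the spread between tumors in all 112. That SD was 0.35 for F830016B08Rik and up to 1.31 for Tgtp1, so this limit was wide. The refits reuse the tumors and the contrast that chose the members, so nothing is read from their signs. Their median of 1.34 ranged from 0.93 to 1.63 with 1 tumor left out. The number of genes called was 208 (54.3% higher in H89). It was 81 with quantile normalization in limma (55 higher and 26 lower, 67.9% higher), 1392 with DESeq2 (45.5% higher), which was run without the filter on 18837 genes, where edgeR called 311 (46.3% higher), and 0 to 12 in edgeR with 1 tumor left out, with 2402 to 3441 genes at an unadjusted p under 0.05. With median ratio normalization it was 251 (49% higher), and with a filter at a mean of 5 CPM it was 197 (62.9% higher). The majority of higher genes thus turned with median ratio normalization or without the filter, and it was larger with the stricter filter. The pathway genes called (1) became 4 of 62 in edgeR with no filter, 16 of 62 with DESeq2 and no filter, and 0 to 1 with 1 tumor left out. The members called (1) became 0 with any tumor left out. With the replicate block edgeR called 0 genes, 0 pathway genes and 0 members, and 3750 genes had an unadjusted p under 0.05. The replicate block gave 9930111J21Rik2 an adjusted p of 0.0641, within a range of 1.33e-10 to 0.13 over its alternatives. Between tumors of the same number the correlations were 0.163, 0.061 and -0.025, where pairs were taken as present above 0.1 in all 3, so the numbers were not read as pairs. Members with no overlap went from 3 to 5 with CPM from plain totals, chosen after seeing the data, and tested genes from 1991 to 2683. The cause was not tested for any of these changes, although fits with 5 tumors use fewer samples. Single genes also moved. Of 109 list genes fitted besides the members, 17 had log2 fold changes of both signs over the alternatives, 0 of them called by edgeR, such as Prf1 (-0.64 to 1.54), Cdh1 (-0.23 to 0.66) and Irgq (-0.01 to 0.18). DESeq2 called Krt18 (adjusted p 0.000491, with 0.0653 in edgeR and up to 0.152 over the alternatives).

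Whole tumors give no cell types, 3 tumors a group leave NaCl tumor 3 and H89 tumor 2 much weight, and reads common to Tgtp1 and Tgtp2 cannot be assigned from this table. Levels of Ifng and of genes under 1 CPM rest on few counts. The annotation version behind the deposited counts is not given, and lengths and shared words here are those of GENCODE M21.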
